A study of Mus musculus with 104 samples.

Results

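RNA of mouse heads lacking Kmt2b was compared with RNA of wild-type (WT) heads at embryonic day 9.5 (E9.5). The comparison uses 4 of the series' 104 samples, 3 of them WT and 1 of genotype Kmt2b-/- (knockout, KO), and takes all genes of the deposited expression table, which lists 22592 rows. The 3 WT samples are given only as 1 merged column, and the KO column is a single library, so each gene has 1 value per genotype and no spread over samples can be computed. The KO sample is titled and labelled as head, but the name of its column carries the tissue code Em where the WT column carries Head. The labels used here do not say what Em stands for. Whether the KO library held tissue from outside the head, and how much, cannot be told apart from the loss of Kmt2b, and the markers of such tissue are given below beside the results.

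The embryos of the series came from DBA2 males mated with C57BL/6N females, and no treatment is given for either genotype. Per the labels' protocols, the amnion was removed, the embryo was severed close to the neck, the anterior piece was taken as brain tissue, and libraries followed Smart-seq2, a full-length cDNA method for small amounts of RNA. The labels do not say whether the 3 WT samples came from separate embryos, nor how many embryos went into each sample.

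Kmt2b encodes one of the histone methyltransferases that place methyl groups on lysine 4 of histone H3, a mark of active and poised promoters, and it is known for its action at promoters rich in CpG. Mouse embryos without it are known to be retarded in growth and to die in mid-gestation. The head of this stage is normally a mixture of neural tube, cranial mesenchyme and neural crest, surface ectoderm with its placodes, vessels and circulating embryonic red cells, and its neural tube is starting to make neurons. In RNA from whole tissue, fewer cells of a type and less RNA per cell cannot be told apart.

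Differences are given as KO minus WT on the log2(FPKM + 1) scale, where FPKM (fragments per kilobase of transcript, scaled to the number of mapped fragments) is the authors' expression value. A difference of 1 means 2-fold for well expressed genes and more than 2-fold for low ones, and a gene is called higher or lower when it reaches 1 or −1. No p-value can be computed. Small RNA genes and rows whose symbols a spreadsheet had converted to dates were dropped, and 11070 genes were kept that reached 1 FPKM in 2 or more of the 6 Kmt2b columns (epiblast and head, WT and KO). Of these, 520 were higher in the KO head (4.7%) and 395 were lower (3.57%). At least 4-fold apart were 75 higher and 39 lower genes, and at least 16-fold apart 15 and 3. The median over all genes kept was 0.03. The counts depend on the value added before the logarithm: with 0.1 in place of 1 FPKM they were 911 and 797, and with 5 they were 226 and 99, so that 69.5% of the called genes were higher in place of 56.8%. For scale, 2 single WT head libraries of E8.5 from the Tet1/2 experiment of the series lay at least 2-fold apart for 131 of the same genes (1.18%), and 3 of them were 16-fold apart. Those are 2 libraries of an earlier stage, and no such pair exists here for E9.5. Their median difference over the kept genes was 0, so they may have been scaled to each other. The E9.5 columns do not appear to be, which limits this comparison of shares. Total FPKM was 491432 in the WT and 505676 in the KO column. Low values step in whole fragments: of 636 genes above 0 and under 0.1 FPKM in both columns, 120 had a KO value 2.91 times the WT value within 0.2%, which places the merged WT column at about 2.91 times the depth of the KO library. If those genes held 1 fragment in each column, it was worth about 0.0544 FPKM in KO and 0.0187 in WT at their median. They are limited to values under 0.1 FPKM, so 1 fragment can be worth more in other genes. Apoa1 had the same ratio at 0.379 FPKM in WT and 1.10 in KO.

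**Figure D1:**
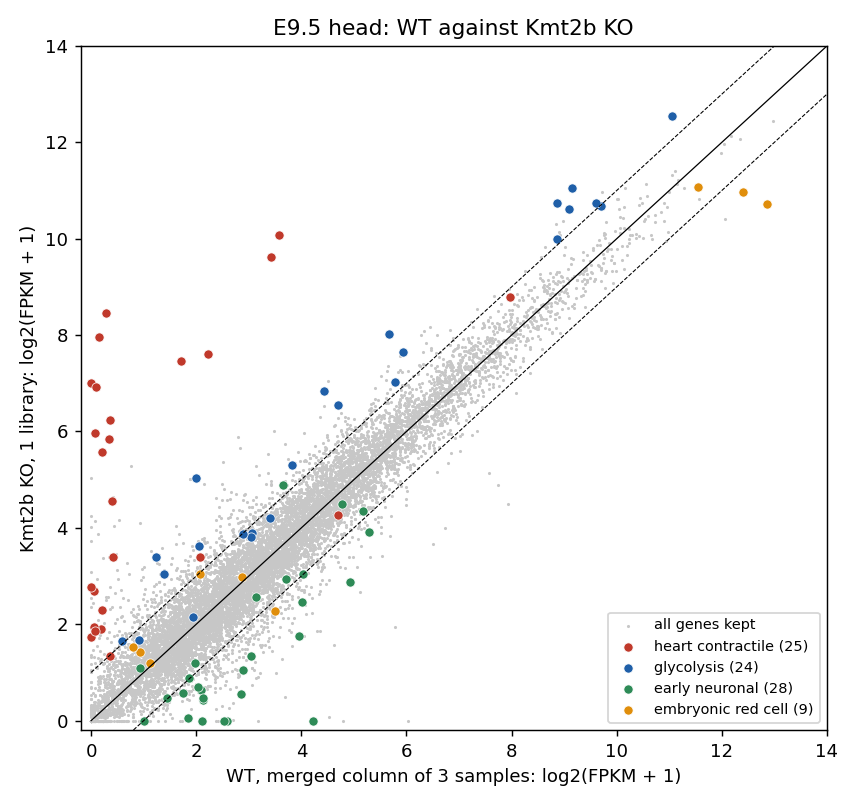
Expression of each kept gene (grey) in the merged WT column (x axis) and the KO library (y axis) at E9.5, both as log2(FPKM + 1), with the line of equality and the 2-fold lines dashed. Coloured points are the list members with at least 1 FPKM in either column: heart contractile genes lie far above the dashed band, most glycolysis genes just above it, and most early neuronal genes and globins below the line of equality.

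The targeted gene is listed under its older symbol, Wbp7. It stood at 1.20 FPKM in WT against 0.0349 in the KO library, a 34.5-fold lower value, and the E8.5 heads gave 0.60 and 0.133 FPKM. The KO label was thus met by a low level of the targeted transcript, although the WT level is itself low. The other H3K4 methyltransferase genes were not called. Mll5, a relative whose own enzyme activity is doubtful, had the largest difference among the 22 kept genes of H3K4 methyltransferase complexes and demethylases, with 15.3 FPKM in WT and 8.09 in KO (−0.84). Mll1, the closest relative of Kmt2b, had 2.67 and 1.92 FPKM (−0.33). Wdr5, a core subunit that the complexes share, had 29.4 FPKM in WT and 45.8 in KO (0.62). Among these 22 genes 0 were higher, 0 were lower, and the median was −0.01. Wbp7 itself, with a difference of −1.09, is not among the 22. Over all kept genes 4.7% were higher, 3.57% were lower and the median was 0.03, so 0 of 22 is not far from the overall share.

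The sexes of the columns were not matched. Xist, the transcript that coats the inactive X chromosome of females, had 8.08 FPKM in WT and is listed at 0 in the KO library, and its antisense partner Tsix had 26.8 FPKM and 0. Of the Y-linked genes, Ddx3y had 3.20 FPKM in WT and 9.34 in KO, Eif2s3y 7.78 and 6.44, and Uty 1.27 and 1.98. Kdm5d, also Y-linked, had 1.08 FPKM and is listed at 0 in KO. The merged WT column thus holds RNA with both kinds of sex-linked transcript and the KO library only Y-linked ones, so the genotype and the sex of the embryos cannot be told apart for genes on these chromosomes.

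The 8 largest positive differences among genes above 0 in both columns were all those of heart muscle genes. Of 32 listed genes of the contractile apparatus of the heart, 13 passed the filter, 11 of these were higher in KO and 0 lower, and their median was 5.88. The KO value exceeded the WT value for 30 of the 32, and 25 reached 1 FPKM in KO where 7 did in WT. Their summed level was 306 FPKM in the WT column and 3858 in the KO library. In WT, 5 of the 32 are listed at 0, and in KO 1. Without Tpm1, a tropomyosin gene that many cell types use, the sums were 57.3 and 3414 FPKM. Atp2a2, the calcium pump of the sarcoplasmic reticulum, was the 1 member below its WT level, with 24.9 and 18.3 FPKM (−0.43). With no filter on low values the median of the list was 2.36.

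Myl7, the regulatory light chain of atrial myosin and a general marker of the early heart tube, had 10.8 FPKM in WT and 1080 in KO (6.51). Actc1, cardiac alpha-actin, had 9.73 and 790 FPKM (6.2). Myl4, the essential light chain of the atrium, had 0.218 and 351 FPKM (8.18). These 3 were the most abundant heart transcripts of the KO library apart from Tpm1, which had 248 and 445 FPKM and was not called (0.84). The early ventricle was represented too: Myl2, the ventricular regulatory light chain, had 0.115 FPKM in WT and 246 in KO (7.79). It failed the filter, which asks for 1 FPKM in 2 columns, as did Tnni3, the adult form of cardiac troponin I, with 0.159 and 46.5 FPKM. Myl3, the ventricular essential light chain, is listed at 0 in WT and had 127 FPKM in KO. Of the troponin genes, Tnnt2 had 0.0545 and 62.0 FPKM (5.90), Tnni1 0.0591 and 121 (6.85), and Tnnc1 2.27 and 174 (5.74). Acta2, smooth muscle actin, which the young heart also uses, had 3.65 and 194 FPKM (5.39). The myosin heavy chains were lower in level than the light chains, with Myh7 at 0.0338 and 5.42 FPKM and Myh6 listed at 0 in WT and at 2.32 FPKM in KO. Csrp3, a protein of the muscle Z-disc, had 0.284 and 74.4 FPKM (5.88), and Pgam2, the muscle form of phosphoglycerate mutase, had 0.702 and 37.8 (4.51).

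The promoters of 3 of these genes are shown because each holds a CArG box, the site that serum response factor binds in muscle genes. They are the 250 bases before the RefSeq start in GRCm38.p6, on the gene's strand, with the box in capitals: Actc1 at chr2:114052876-114053125 (- strand), Myl7 at chr11:5898783-5899032 (- strand) and Myl3 at chr9:110763428-110763677 (+ strand).
Actc1 promoter: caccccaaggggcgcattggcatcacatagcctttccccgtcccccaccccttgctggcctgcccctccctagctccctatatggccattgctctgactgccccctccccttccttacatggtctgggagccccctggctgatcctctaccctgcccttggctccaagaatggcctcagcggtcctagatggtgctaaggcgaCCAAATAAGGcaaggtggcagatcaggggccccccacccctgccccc
Myl7 promoter: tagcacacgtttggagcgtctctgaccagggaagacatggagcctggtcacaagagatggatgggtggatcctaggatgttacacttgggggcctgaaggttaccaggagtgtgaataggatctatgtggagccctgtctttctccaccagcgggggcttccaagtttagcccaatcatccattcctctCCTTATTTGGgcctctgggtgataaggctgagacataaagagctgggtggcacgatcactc
Myl3 promoter: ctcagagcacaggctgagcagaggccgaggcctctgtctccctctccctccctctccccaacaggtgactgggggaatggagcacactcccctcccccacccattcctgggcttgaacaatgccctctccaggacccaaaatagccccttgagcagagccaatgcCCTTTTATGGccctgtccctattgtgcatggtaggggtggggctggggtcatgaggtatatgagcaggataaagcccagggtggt
The boxes begin 47, 61 and 85 bases before the start. Of the 32 contractile genes, 28 had a promoter of 300 bases (250 before and 50 after the start), and 6 of these (21.4%) held a CArG box, against 1.42% of the promoters of the kept genes and 1.57% of all 27025 RefSeq promoters. Such a match is a description of letters and not a measured site. Among the matches, Acta1, skeletal alpha-actin, had 0.27 FPKM in WT and 56.7 in KO.

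Genes that direct heart formation were also higher, at lower levels. Of 21 heart regulators, 11 passed the filter, 7 were higher and 0 lower, with a median of 1.27 that moved to 0.59 with 5 FPKM added before the logarithm and to 3.02 with 0.1. Popdc2, a membrane protein of heart muscle, had 0.0542 FPKM in WT and 16.7 in KO (4.07). Hand1, a transcription factor of the left ventricle and lateral plate, had 0.0874 and 13.7 FPKM (3.76). Gata4 had 0.031 and 4.46 FPKM (2.41), Gata5 0.191 and 4.08 (2.09), and Hand2 0.0972 and 2.69 (1.75). Nkx2-5, a defining factor of cardiac progenitors, was low in both columns, listed at 0 in WT and at 0.435 FPKM in KO. Isl1, which marks progenitors of the second heart field but also cranial neurons, was below its WT level, with 15.3 and 7.24 FPKM (−0.98). Ankrd1, a muscle ankyrin repeat protein, is listed at 0 in WT and had 15.2 FPKM in KO.

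At E8.5 the same contractile list had a median difference of 0.24 between KO and WT heads, with 1 of the 13 kept genes called higher. It also varied among WT heads of that stage: between the 2 single WT libraries, 8 of the 13 lay at least 2-fold apart, Actc1 by 2.90, Myl7 by 2.76 and Tnnt2 by 2.25. Their part in the E9.5 result was not tested, and the E9.5 differences of these 3 genes, between 5.90 and 6.51, were larger.

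**Figure D2:**
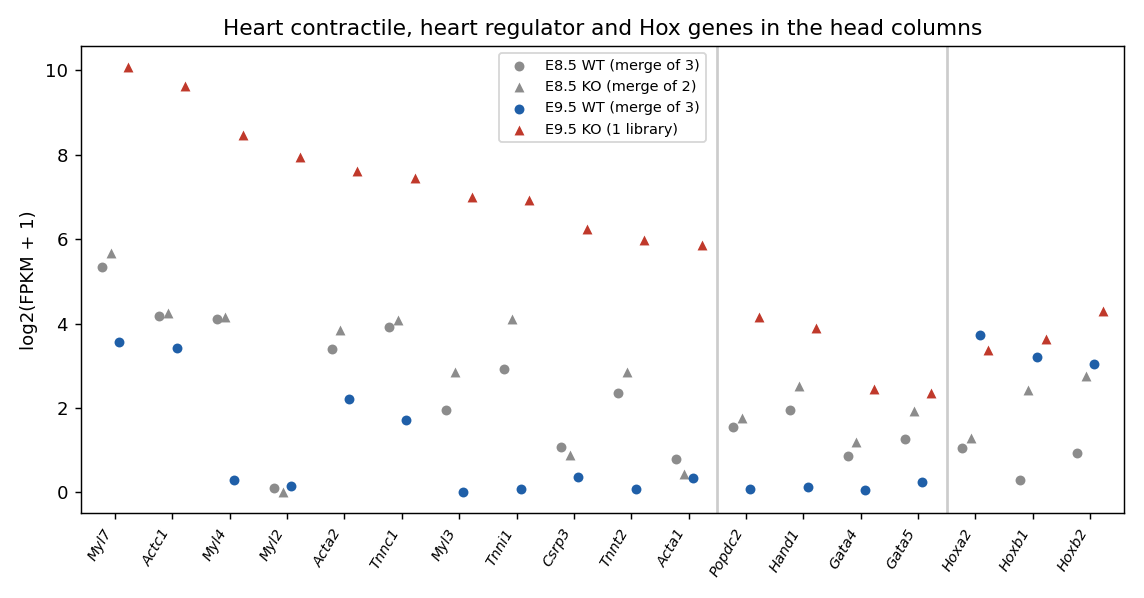
Levels as log2(FPKM + 1) in the 4 Kmt2b head columns for heart contractile genes (left), heart regulators (middle) and 3 Hox genes (right); circles are WT, triangles KO. The E9.5 KO library (red) is the highest of the 4 for all heart genes drawn, and the E9.5 WT column (blue) stands near 0 for most of them.

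Hox genes, which pattern the body from the hindbrain backward, gave a graded picture. Of 39 listed, 4 passed the filter and 12 reached 1 FPKM in KO where 3 did in WT. Hoxb2, a gene of the hindbrain, had 7.17 FPKM in WT and 18.7 in KO (1.27). Among the kept genes not called were Hoxb1 with 8.24 and 11.4 FPKM (0.42) and Hoxa2 with 12.3 and 9.42 (−0.35). The genes of the next groups were low, and some were listed at 0 in WT: Hoxa5 is listed at 0 in WT and had 2.92 FPKM in KO, Hoxb6 0 and 1.80, Hoxb5 0 and 1.53, and Hoxa4 0 and 1.19. Hoxb3 had 0.286 and 2.13 FPKM and Hoxc5 0.0195 and 1.54. Genes of the trunk end were at the floor, with Hoxa9 listed at 0 in both columns and Hoxb9 at 0 and 0.0576 FPKM. The KO library thus held Hox transcripts of the hindbrain, neck and anterior trunk, and none at 1 FPKM or more from groups behind the sixth. Hoxb2 also lay 1.27 apart between the 2 WT E8.5 libraries.

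Of other tissues outside the head, single markers were higher. Of 14 genes of limb, lateral plate and intermediate mesoderm, 5 passed the filter and 3 were higher, but these are Hand1, Hand2 and Gata4, which the heart regulator list also holds. The summed level of the list was 4.65 FPKM in WT and 34.6 in KO, and that of the 9 genes not shared with the heart regulators was 4.21 and 10.4, with Osr1 at 0.0546 and 2.86 FPKM and Foxf1 at 0.333 and 3.30. For somite and skeletal muscle 3 of 18 passed and 1 was higher, Meox1 with 0.468 and 4.09 FPKM (1.79), while the muscle determination gene Myod1 was listed at 0 in WT and had 0.174 FPKM in KO. The tail bud list had summed levels of 13.9 and 17.1 FPKM, or 5.30 and 10.1 without Greb1, a target of oestrogen signalling (8.61 and 7.05), with Cdx2 and Cdx4 listed at 0 in both. Foregut, liver and yolk sac endoderm had summed levels of 72.0 and 70.9 FPKM. Most of these came from Cldn6, a tight junction gene of early epithelia (55.9 and 38.8), and the sums without it were 16.1 and 32.1. The KO value was above WT for 15 of the 25 genes and below it for 7. Within that list Rbp4, which carries retinol in blood, had 1.02 FPKM in WT and 8.11 in KO (2.17), and Ttr, which carries thyroid hormone and retinol-binding protein, is listed at 0 in WT and had 5.79 FPKM in KO. The liver genes Alb and Afp stayed under 1 FPKM in both columns. The part of these markers in other results was not tested.

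Embryonic globin RNA was lower in the KO library. Hbb-y, an embryonic beta-globin, had 7391 FPKM in WT and 1696 in KO (−2.12). Hbb-bh1, another embryonic beta-globin, had 5392 and 1993 FPKM (−1.44). Hba-x, the embryonic alpha-globin, had 2979 and 2164 FPKM and was not called (−0.46). The 2 kinds of globin chain thus differed by unequal amounts. Of 8 kept red cell genes, 3 were lower, with a median of −0.20, and the median turned to 0.07 when genes with at least 1 FPKM in either E9.5 column were taken. Alas2, which starts haem synthesis in red cells, did not share the lower level, with 3.19 and 7.21 FPKM (0.97). Hbb-y was at 18.8 FPKM in the WT heads of E8.5 and Hbb-bh1 at 45.9.

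Endothelial genes were mixed, with 3 lower and 1 higher among 11 kept. Emcn, a surface mucin of veins and capillaries, had 8.17 and 2.48 FPKM (−1.40). Fli1, an Ets factor of vessels and blood, had 7.6 and 2.29 FPKM (−1.39). Etv2, an early Ets factor of vessel and blood progenitors, was higher with 1.29 and 5.96 FPKM (1.61). Genes of neurons were lower as a group. Of 32 early neuronal genes, 18 passed the filter, 10 of these were lower and 1 higher, and their median was −1.08 (−0.68 with 5 FPKM added before the logarithm). The KO value was below the WT value for 30 of the 32. At least 1 FPKM was reached by 27 in WT and 14 in KO, and 7 are listed at 0 in KO and 0 in WT. Their summed level was 285 FPKM in WT against 125 in KO. The median KO difference of the kept genes was −0.14 in the E8.5 heads, and 0 of them lay 2-fold apart between the 2 WT libraries of that stage.

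The neuronal differentiation factors were at the floor in KO. Neurod1 had 17.6 FPKM in WT and is listed at 0 in KO, Neurod4 4.98 and 0, Insm1 4.80 and 0, and Nhlh2 3.34 and 0. These 4 are low at E8.5 as well and did not pass the filter. Elavl4, an RNA-binding protein of young neurons, had 14.4 and 2.37 FPKM (−2.19). Ebf2 had 6.17 and 0.459 FPKM (−2.30), and Pou4f1, a factor of sensory neurons, 6.43 and 1.08 (−1.84). Of the cytoskeletal genes, Tubb3, the neuronal tubulin, had 38.2 and 14.1 FPKM (−1.38), Map2 7.23 and 1.54 (−1.70), and the neurofilament gene Nefm 3.36 and 0.340 (−1.70). Crmp1, a semaphorin signalling protein of growing axons, was the 1 gene of the list called higher, with 11.5 and 28.8 FPKM (1.25). Stmn2, a microtubule regulator of neurons, had 26.5 and 21.6 FPKM (−0.28), so not every member of the list differed.

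Neural progenitor genes were lower for some members. Of 25 kept genes 4 were lower and 1 higher, with a median of −0.23. Fabp7, the fatty acid binding protein of radial glia, had 244 FPKM in WT and 21.6 in KO (−3.44). Dbx1, a factor of the intermediate neural tube, had 13.2 and 1.92 FPKM (−2.28). Pou3f2 had 21.0 and 6.14 FPKM (−1.63). Sox2, a general factor of neural progenitors, had 30.1 and 13 FPKM (−1.15). Ptn, a secreted growth factor, was higher, with 21.0 and 45.2 FPKM (1.07).

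Of the regional genes of the brain, 16 in the forebrain and eye list passed, 2 were lower and 1 higher, and the median was −0.18. It turned to 0.16 when a mean of at least 5 FPKM was required. Aldh1a3, a retinoic acid synthesizing enzyme of the eye and nasal region, had the largest negative difference among the named genes above 0 in both columns, with 53.9 FPKM in WT and 2.83 in KO (−3.84). Six6, an eye and hypothalamus factor, had 5.78 and 0.613 FPKM (−2.07). Rax, the factor of the eye field, was higher with 1.08 and 3.53 FPKM (1.12). Pax6, of eye and forebrain, had 22.4 and 28.8 FPKM (0.35), and Otx2, of fore- and midbrain, 28.7 and 34.8 (0.27), so anterior head transcripts were present in the KO library at levels not called different.

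Of 15 kept midbrain and hindbrain genes, 5 were higher and 2 lower, with a median of 0.32. Fgf15, a secreted signal of the midbrain and anterior hindbrain, had 5.97 FPKM in WT and 58.5 in KO (3.09). Pax8, of the midbrain-hindbrain boundary and the otic region, had 1.27 and 9.30 FPKM (2.18). Egr2, the factor of rhombomeres 3 and 5, had 0.286 and 3.96 FPKM (1.95), and it also lay 1.76 apart between the 2 WT E8.5 libraries. Wnt1, of the dorsal midbrain and its boundary, had 0.410 and 3.32 FPKM (1.61). Gbx2, of the anterior hindbrain, had 1.18 and 3.37 FPKM (1.0). Several of these genes were higher in WT heads of E8.5 than of E9.5: Fgf15 stood at 39.7 FPKM, Wnt1 at 6.07 and Gbx2 at 6.6 at E8.5.

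Cranial mesenchyme and surface ectoderm genes were lower for a minority of members. Of 25 kept neural crest and mesenchyme genes, 5 were lower and 1 higher, with a median of 0.01. Foxc1, a factor of cranial mesenchyme, had 8.67 FPKM in WT and 1.67 in KO (−1.86), and Prrx1 had 11 and 2.85 (−1.64). Sox10, a defining factor of migrating crest, was nearly equal, with 1.42 and 1.43 FPKM, and Twist1, of cranial mesenchyme, had 8.31 and 8.87. Of 22 kept surface ectoderm and placode genes, 6 were lower and 1 higher, with a median of −0.34. Trp63, the master factor of epidermis, had 7.34 and 1.12 FPKM (−1.97), and Perp, a target of it in cell junctions, 18.6 and 2.63 (−2.43). Sostdc1, a secreted Bmp and Wnt antagonist, had 23.5 and 1.95 FPKM (−3.05). Among the 22, 7 were above 0. The keratin genes Krt8 and Krt18 did not follow, with 41.0 and 74.6 FPKM (0.85) and 123 and 154 (0.33). Of 9 kept collagen genes, 5 were lower and 0 higher, with a median of −1.0. That median depended on the settings, with −0.47 when a mean of at least 5 FPKM was required, −0.41 with 5 FPKM added before the logarithm and −0.08 over all 44 listed collagen genes with no filter. Col1a2 had 5.78 and 1.40 FPKM (−1.5), Col3a1 9.87 and 3.49 (−1.28) and Col2a1 6.19 and 2.13 (−1.20).

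**Figure D3:**
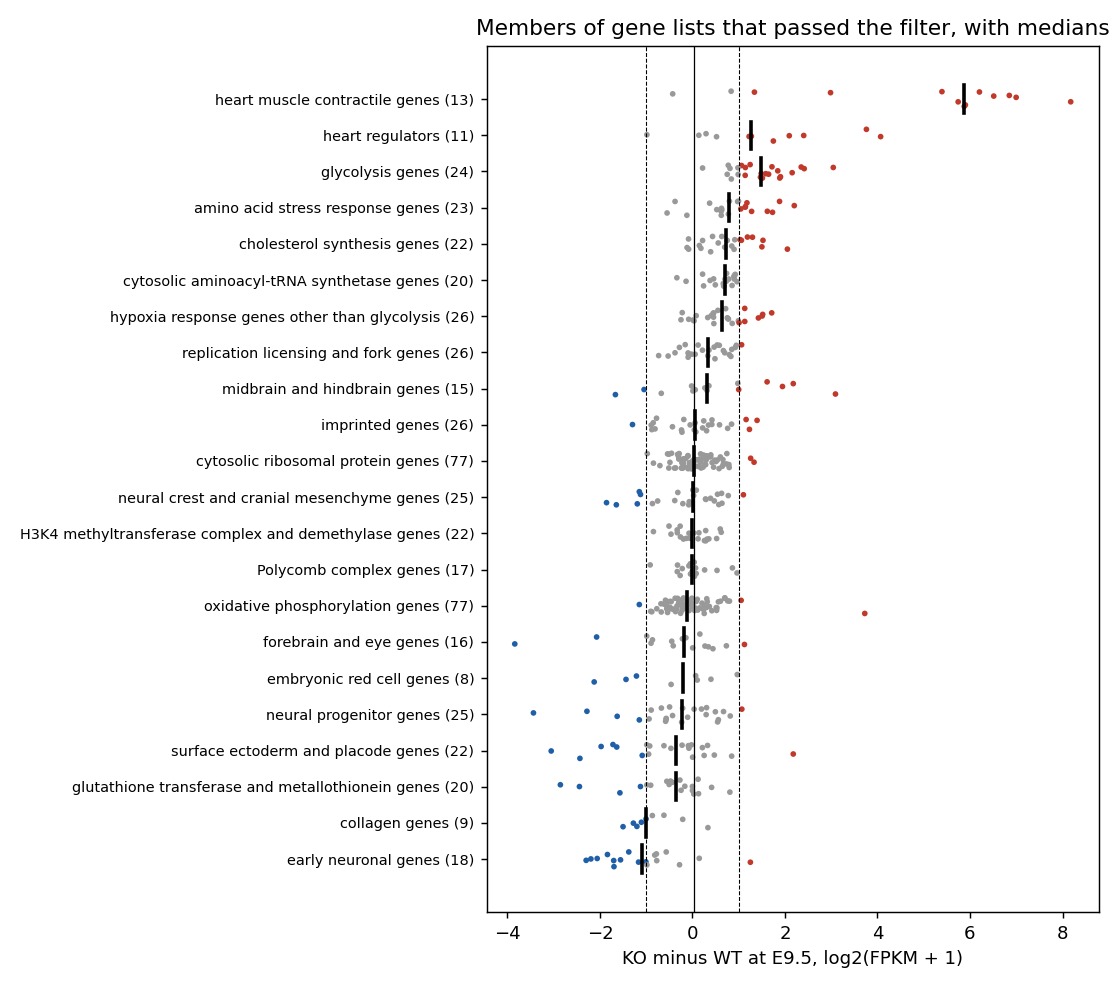
KO minus WT difference at E9.5 on the log2(FPKM + 1) scale for each list member that passed the filter (number in brackets), red from 1 and blue from −1, with the list median as a thick bar and the median of all genes, 0.03, as a thin line. Heart, glycolysis and amino acid stress genes lie to the right, early neuronal and collagen genes to the left, and ribosomal, H3K4 and Polycomb genes around 0.

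Glycolysis genes were higher nearly throughout. Of 24 kept glycolysis genes, 17 were higher in KO and 0 lower, all 24 were above 0, and the median was 1.48. The summed level of the list was 6047 FPKM in WT and 16739 in KO. Slc2a1, the glucose transporter GLUT1, had 50.1 FPKM in WT and 260 in KO (2.35). Pfkl, the liver form of phosphofructokinase, had 20.5 and 114 FPKM (2.42). Aldoa, aldolase A, had 570 and 2136 FPKM (1.9), and Pkm, pyruvate kinase, 462 and 1713 (1.89). Ldha, lactate dehydrogenase A, had 2134 and 5985 FPKM (1.49). Gapdh, often taken as a reference gene, had 830 and 1648 FPKM (0.99) and was just short of the call. Hk2, the first enzyme of the path in growing cells, had 13.2 and 38.3 FPKM (1.47).

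Of the 24 kept glycolysis genes, 23 had a higher level in WT heads of E8.5 than in those of E9.5, and for 16 it was at least 2 times as high. Slc2a1 stood at 542 FPKM in WT at E8.5, at 50.1 in WT at E9.5 and at 260 in KO at E9.5. Pfkl had 204, 20.5 and 114 FPKM in the same order, and Aldoa 2017, 570 and 2136. The KO level at E9.5 thus lay between both WT stages for Slc2a1 and Pfkl and near that of E8.5 for Aldoa. It lay above both for Gapdh, with 903, 830 and 1648 FPKM, for Pgk1, phosphoglycerate kinase, with 464, 463 and 1023, and for Hk2, with 20.1, 13.2 and 38.3. The KO level at E9.5 exceeded the E8.5 WT level for 16 of the 24 genes. At E8.5 itself the list had a median KO difference of 0.13, with 1 gene higher. The E9.5 columns were not quantile normalized together with those of E8.5, so levels across stages are approximate.

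Promoters of 2 of these genes are shown because glycolysis genes are known targets of hypoxia-inducible factors. Capitals mark each match to ACGTG or GCGTG on either strand, the core letters of the site those factors bind, in the 250 bases before the start of Slc2a1 at chr4:119108495-119108744 (+ strand) and of Pfkl at chr10:78009808-78010057 (- strand), RefSeq and GRCm38.p6.
Slc2a1 promoter: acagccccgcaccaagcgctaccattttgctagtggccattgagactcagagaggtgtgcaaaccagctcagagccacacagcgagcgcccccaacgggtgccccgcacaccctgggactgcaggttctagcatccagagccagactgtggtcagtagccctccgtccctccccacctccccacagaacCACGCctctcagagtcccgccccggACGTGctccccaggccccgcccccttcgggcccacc
Pfkl promoter: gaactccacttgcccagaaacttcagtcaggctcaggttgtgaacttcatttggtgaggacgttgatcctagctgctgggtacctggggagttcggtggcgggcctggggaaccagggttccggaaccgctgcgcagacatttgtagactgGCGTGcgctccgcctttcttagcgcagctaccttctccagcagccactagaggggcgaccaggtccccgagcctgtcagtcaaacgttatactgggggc
The core is common. It was in 16 of 24 glycolysis promoters of 300 bases (66.7%), in 65.4% of the promoters of kept genes and in 43.8% of all RefSeq promoters. Of other hypoxia genes it was in 22 of 24 (91.7%). Of 26 kept hypoxia response genes outside glycolysis, 7 were higher and 0 lower in KO, with a median of 0.63. Bnip3, a mitophagy receptor, had 86.8 FPKM in WT and 287 in KO (1.71), Ndrg1 0.993 and 4.71 (1.52), and Pdk1, which restrains entry of pyruvate into mitochondria, 20.4 and 45.9 (1.13). Adm, adrenomedullin, failed the filter and had 0.335 and 5.49 FPKM (2.28). Vegfa, the vascular growth factor, did not follow, with 6.92 and 5.68 FPKM (−0.25). Oxidative phosphorylation genes had a median of −0.11, with 2 of 77 higher and 1 lower. One of the 2 higher ones, Ndufs5, is listed at 0.000225 FPKM in WT and 12.2 in KO and near 0 at E8.5. Such values can come from reads shared between near-identical copies, so it is uncertain.

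**Figure D4:**
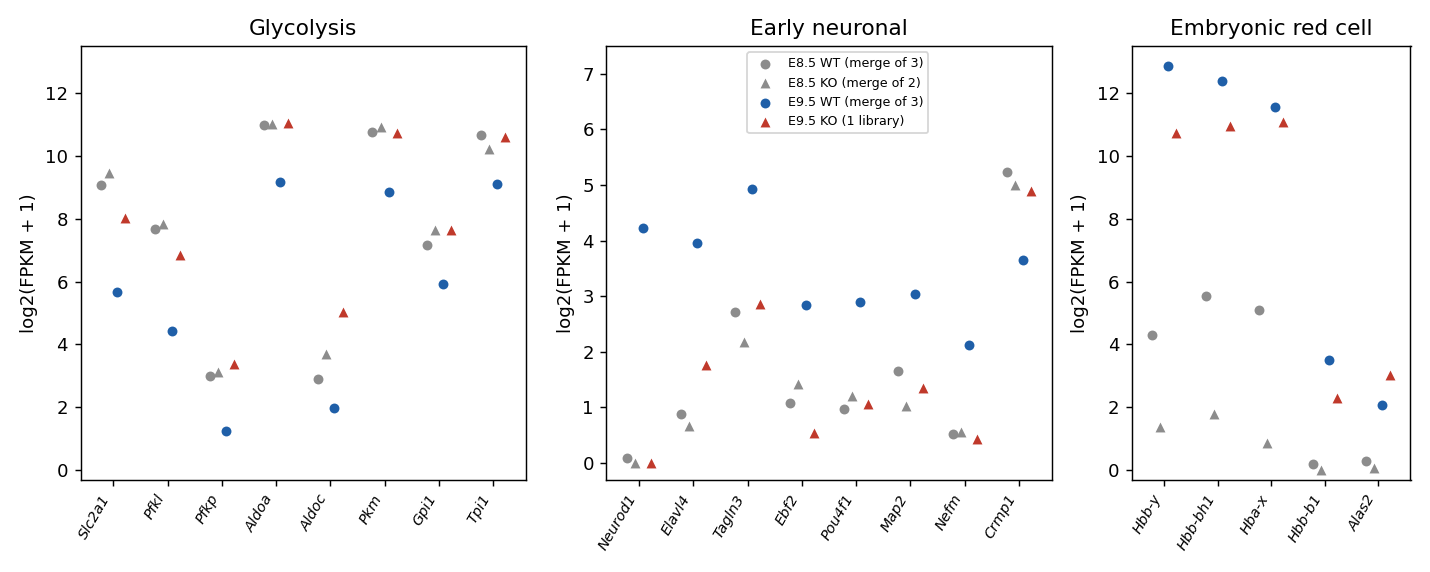
Levels as log2(FPKM + 1) of glycolysis, early neuronal and embryonic red cell genes in the 4 Kmt2b head columns (circles WT, triangles KO, grey E8.5, colours E9.5); the vertical scale of the middle panel is shorter. The E9.5 KO library (red) is above E9.5 WT (blue) for all glycolysis genes drawn, and below it for all neuronal genes drawn but Crmp1 and for the globins.

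Genes of the amino acid stress response were higher too, 9 of 23 kept with 0 lower and a median of 0.80 (0.50 with 5 FPKM added before the logarithm). Chac1, which degrades glutathione, had 0.362 FPKM in WT and 5.26 in KO (2.20). Asns, asparagine synthetase, had 44.9 and 140 FPKM (1.62). Shmt2 and Mthfd2, of mitochondrial one-carbon metabolism, had 24.1 and 91.8 FPKM (1.88) and 36.7 and 76.8 (1.05). Eif4ebp1, an inhibitor of cap-dependent translation, had 76.7 and 257 FPKM (1.73). Ddit3, also known as Chop, had 7.09 and 5.24 FPKM (−0.38) and did not follow. The genes of cytosolic aminoacyl-tRNA synthetases, which charge tRNAs and are partly under the same control, had a median of 0.69, 18 of 20 were above 0, and 0 reached the call. The unfolded protein response list had a median of −0.01, with 1 of 16 higher, and its chaperone Hspa5 had 193 and 161 FPKM.

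Cholesterol synthesis genes were higher for 7 of 22 with 0 lower and a median of 0.73. Mvd, an enzyme of the mevalonate path, had 11.8 FPKM in WT and 52.2 in KO (2.05). Fdps, which makes farnesyl pyrophosphate, had 41.4 and 119 FPKM (1.5). At E8.5 the list was higher as well, by 8 genes with a median of 0.57. Of 18 kept p53 targets, 3 were higher and 2 lower. Bax, a cell death effector, had 26 and 82.9 FPKM (1.64), and Cdkn1a, the cell cycle inhibitor p21, 1.88 and 6.71 (1.42). Btg2, an antiproliferative gene that also marks neurogenic progenitors, had 12.6 and 2.70 FPKM (−1.87). Myc was higher, with 7.83 and 37.9 FPKM (2.14). Ribosomal protein genes had a median of 0.03 and mitotic genes of 0.11, and that of heat shock genes was 0.05, although Hspb1, a small heat shock protein also abundant in muscle, had 2.68 and 31.2 FPKM (3.13).

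Signalling lists held single genes that were far apart beside others that were not. In retinoic acid signalling the synthesizing enzymes stood apart in opposite directions. Aldh1a2, the main enzyme of trunk mesoderm and heart, had 0.336 FPKM in WT and 23.8 in KO (4.22), while Aldh1a3 was lower as given above. Rarb and Rara, receptors of retinoic acid, had 4.03 and 10.6 FPKM (1.21) and 0.844 and 3.25 (1.20). Cyp26a1, which degrades retinoic acid, had 3.57 and 4.47 FPKM (0.26). Of 16 kept genes of this list 4 were higher and 1 lower. Of 18 Wnt genes 5 were higher and 1 lower. Dkk1, a secreted antagonist, had 2.38 and 7.57 FPKM (1.34), the target gene Sp5 0.756 and 3.11 (1.23), and the ligand Wnt5a 5.89 and 1.96 (−1.22). In the Notch list 2 of 12 were lower and 0 higher. Nrarp, a feedback target of Notch, had 15.5 and 2.36 FPKM (−2.30), whereas Hes1 and Hes5, targets that keep progenitors from differentiating, had 25.4 and 41.0 FPKM (0.67) and 4.75 and 7.39 (0.54). Of the hedgehog list, Gas1, a co-receptor, was lower with 45.3 and 9.68 FPKM (−2.12). The ligand Shh failed the filter and had 2.53 and 0.584 FPKM (−1.15). Of 17 Fgf genes 2 were higher and 2 lower, and the feedback targets Spry2 and Dusp6 had 36.0 and 38.7 FPKM (0.10) and 35.5 and 30.9 (−0.19).

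In 2 lists of chromatin regulators, 0 of 17 Polycomb and 0 of 8 DNA methylation genes were 2-fold apart, with medians of 0.00 and 0.21. Over all kept genes 4.7% were higher and 3.57% lower, so with so few genes a count of 0 is near the overall share. Dnmt3b, a de novo DNA methyltransferase that is high in early embryos, had 12.6 FPKM in WT and 22.5 in KO (0.78). Of 26 kept imprinted genes 3 were higher and 1 lower. Ndn had 57.5 and 153 FPKM (1.40) and Peg3 13.2 and 30.7 (1.16), both expressed from the paternal copy, and Sgce, also paternal, had 15.2 and 5.58 (−1.30). Of 20 glutathione transferase and metallothionein genes 4 were lower and 0 higher, with Mt2, a metal-binding protein, at 190 and 34.2 FPKM (−2.44).

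Differences that KO heads had in common at both stages can be set out because the E8.5 columns hold other samples, 3 WT and 2 KO. At E8.5, 246 of the 11070 genes were higher in KO (2.22%) and 276 lower (2.49%). The E8.5 columns had nearly equal total FPKM, 451779 in WT and 451823 in KO, and 10046 genes at 1 FPKM or more in each. Those of E9.5 had 491432 and 505676 FPKM, with 10301 and 10166 such genes. The E8.5 columns thus appear scaled to a common distribution and the E9.5 columns not, which limits the comparison of counts between stages. Genes lower at both stages numbered 71, which is 18% of those lower at E9.5 and 25.7% of those lower at E8.5. Genes higher at both numbered 43, or 8.27% and 17.5%. Opposite directions were seen for 16 genes higher at E9.5 and lower at E8.5, and for 8 the other way. The 16 are 5.8% of the genes lower at E8.5, and 4.7% of all kept genes were higher at E9.5. The 8 are 3.25% of the genes higher at E8.5, and 3.57% of all kept genes were lower at E9.5. Opposite calls were thus about as frequent as over all genes. Lower at both stages were mainly single genes of unlike function, beside the globins Hbb-y and Hbb-bh1 given above. Magohb encodes a core protein deposited at exon junctions. Its E9.5 level was 64.2 FPKM in WT and is listed at 0 in the KO library, and the E8.5 columns gave 63.9 FPKM and 0. Gstm5, a glutathione transferase, had 212 and 28.4 FPKM at E9.5 (−2.85) and a difference of −3.50 at E8.5. Hmgn3, a nucleosome-binding protein, had 105 and 15 FPKM at E9.5 (−2.73) and −2.49 at E8.5. Nxt2, of mRNA export, had 5.13 and 0.192 FPKM (−2.36) and −2.22 at E8.5. Elovl2, which elongates polyunsaturated fatty acids, had 8.24 and 0.990 FPKM (−2.21) and −1.97 at E8.5. Rgs2, a regulator of G protein signalling, had 19.3 and 5.18 FPKM (−1.72) and −1.80 at E8.5. Zfp948 had 6.76 and 1.08 FPKM (−1.90) and −1.92 at E8.5.

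Among the genes higher at both stages were Fgf15, with 39.7 and 143 FPKM at E8.5, and Ifitm1, a small membrane protein of early embryos, with 123 and 387 in the E8.5 heads and then 21.8 and 131 (2.54). Cyct, the cytochrome c gene of the testis, had 0.220 and 4.64 FPKM at E9.5 (2.21), after 0.733 and 9.53 in the E8.5 heads, and was the 1 kept gene of the germline list called higher at either stage. Fmr1nb of that list was called lower at E8.5, with 3.27 FPKM in WT and listed at 0 in KO, and Mov10l1, which did not pass the filter, had 0.0128 and 1.83 FPKM at E9.5 (1.48). Arg1, arginase, had 19.4 and 78.0 FPKM at E9.5 (1.95) and a difference of 1.65 at E8.5. Chac1 was in both sets as well. Hoxb2 was in the set as well, with a difference of 1.83 at the earlier stage and 1.27 at the later one. It also lay 1.27 apart between the 2 WT E8.5 libraries, and the source of its higher level was not tested.

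**Figure D5:**
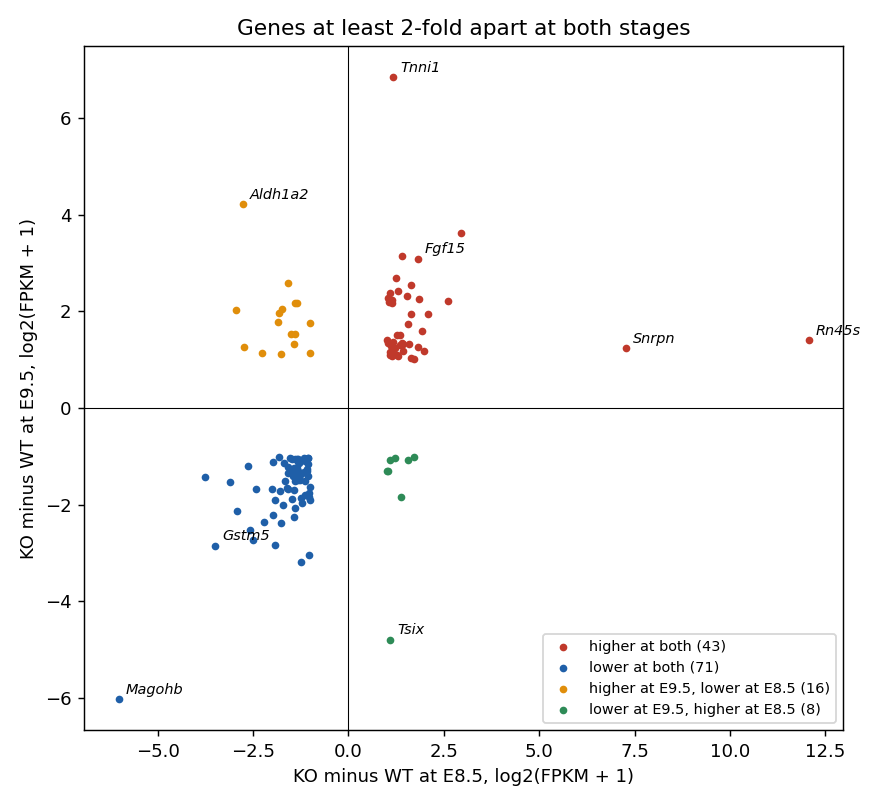
Differences KO minus WT on the log2(FPKM + 1) scale at E8.5 (x axis) and E9.5 (y axis) for the genes at least 2-fold apart at both stages. The 71 genes lower at both and the 43 higher at both stand beside 16 and 8 in opposite directions; Magohb, listed at 0 in both KO columns, lies farthest down, and Rn45s, the ribosomal RNA precursor, and Snrpn lie far right because they are listed at 0 in WT at E8.5.

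Promoters of 3 genes lower at both stages are shown with each CpG in capitals, since Kmt2b is known to act at promoters rich in CpG. They are the 250 bases before the RefSeq start in GRCm38.p6: Gstm5 at chr3:107895604-107895853 (+ strand), Elovl2 at chr13:41220404-41220653 (- strand) and Magohb at chr6:131293245-131293494 (- strand).
Gstm5 promoter: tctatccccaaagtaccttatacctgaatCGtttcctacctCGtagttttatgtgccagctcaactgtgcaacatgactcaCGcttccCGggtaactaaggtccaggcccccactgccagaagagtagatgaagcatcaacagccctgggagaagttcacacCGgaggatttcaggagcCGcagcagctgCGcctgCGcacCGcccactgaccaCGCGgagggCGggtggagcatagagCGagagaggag
Elovl2 promoter: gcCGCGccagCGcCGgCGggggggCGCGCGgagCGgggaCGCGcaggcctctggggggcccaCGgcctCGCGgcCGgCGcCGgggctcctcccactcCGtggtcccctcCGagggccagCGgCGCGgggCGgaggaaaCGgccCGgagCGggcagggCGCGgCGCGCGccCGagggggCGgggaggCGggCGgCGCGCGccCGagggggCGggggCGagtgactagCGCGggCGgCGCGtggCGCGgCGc
Magohb promoter: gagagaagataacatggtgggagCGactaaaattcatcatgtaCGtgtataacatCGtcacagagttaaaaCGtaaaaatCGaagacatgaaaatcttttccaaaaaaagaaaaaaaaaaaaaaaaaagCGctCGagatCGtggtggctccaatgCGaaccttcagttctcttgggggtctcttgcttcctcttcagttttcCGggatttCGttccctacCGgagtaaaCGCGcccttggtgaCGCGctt
They hold 13, 49 and 16 CpGs in these 250 bases. Over the 8866 kept genes with a promoter in the table, the median was 21 CpGs in a longer window of 300 bases. For the genes lower at both stages it was 20, but only 56 of the 71, fewer than 80%, had a promoter in the table. No conclusion on CpG content is drawn from these medians. For the contractile genes of the heart, 28 of 32 matched, the median was 6 CpGs.

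Values of exactly 0 were treated apart. Of the kept genes with at least 1 FPKM in WT, 15 are listed at 0 in KO, and of those with at least 1 FPKM in KO, 13 are listed at 0 in WT. An exact 0 can be a failed estimate. Otud4, a widely expressed deubiquitinase, is listed at 0 in WT and had 31.7 FPKM in KO, and the zinc finger gene Zfp281 0 and 17.9, while both had 11.7 FPKM or more in WT heads of E8.5. Magohb was present in both WT columns and listed at 0 in both KO columns. Whether its 0 values are failed estimates was not tested.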

How the data were processed

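The files hold RNA expression as FPKM per gene, made by the authors. TopHat2 (version 2.0.11) and Cufflinks (version 2.0.2) are among the tools named in the submitters' processing notes, with build mm9, and how the merge was made is not given in the sources used here. The deposited FPKM of the 3 WT E9.5 samples are 1 merged column, and 2 columns of no listed sample were not used. Of 22592 rows, 27 with date-like names and 6 small RNA genes were left out. Differences were taken on log2(FPKM + 1) with Python 3.11.15, numpy 2.4.6 and pandas 2.3.3, a call meant at least 2-fold, and no test was possible. Depth is known only as the ratio given above, and FPKM carry no counting interval.

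The comparison and its 45 gene lists were chosen with earlier results of these data known. Named were, by rule, the 15 largest differences per direction where the higher column reached 5 FPKM, of which the main ones are described, up to 6 members per list with at least 2 FPKM and members that did not follow their list, 10 genes per direction called at both stages, the target, its relatives and sex-linked genes, Hox genes with at least 1 FPKM, and genes listed at 0. Rows named by accession were not named. Further members, such as Stmn2, Gapdh, Vegfa and Hoxa9, were chosen after their values were seen. Alternatives were pseudocounts of 0.1 and 5 FPKM, 3 other filters, leaving out genes listed at 0, quantile normalization and median scaling, and 2 gene sets left out that were chosen after seeing the data. Promoters are the first RefSeq entry per symbol in GRCm38.p6, and no mm9 coordinates were used. Results for a few genes are not reported here.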

Additional observations from a re-analysis of the deposited data

Results flagged for a closer look

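The KO and WT columns lie at least 2-fold apart in opposite directions at E8.5 and E9.5 for 15 kept genes with at least 5 FPKM in the higher column of each stage. The 5 of them that belong to a list or were named by rule are given here, and the other 10 include Hes3, Csrp1 and Hopx. Without the limit of 5 FPKM, opposite calls were about as frequent as calls over all kept genes, as given above. With 1 value per group, the difference between the stages was not tested. Aldh1a2, the retinoic acid enzyme of trunk mesoderm and heart, gave a difference of −2.76 in the E8.5 heads, with 11.4 FPKM in WT against 0.823 in KO, and of 4.22 one stage later, from 0.336 to 23.8 FPKM. It lay 1.63 apart between the 2 WT libraries of E8.5. Trh, the gene of thyrotropin-releasing hormone, had 14.8 and 3.71 FPKM in the E8.5 heads (−1.74) and 2.05 and 11.7 in those of E9.5 (2.06). Pax8, of the otic region and the midbrain-hindbrain boundary, gave a difference of −1.40 at the earlier stage and 2.18 at the later one. Epcam, an epithelial adhesion protein, gave 1.56 and then −1.08, with 35.9 FPKM in WT and 16.4 in KO at E9.5. Tsix gave 1.09 and then −4.80, and it is listed at 0 in the E9.5 KO library together with Xist.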

How the results depend on the processing

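No paired analysis was possible because the 3 WT samples are 1 merged column and the KO is 1 library, and for the same reason no sample could be left out. With a pseudocount of 0.1 FPKM, 911 genes were higher and 797 lower at E9.5, and 126 higher and 190 lower at both stages. With 5 FPKM these were 226 and 99, and 11 and 10. With a mean of at least 5 FPKM over the E9.5 columns, 350 genes were higher and 195 lower of 6719, and with no filter, or with at least 1 FPKM in either E9.5 column, 609 and 511. Quantile normalization gave 470 higher and 430 lower, scaling to the median ratio 462 and 446, and leaving out genes listed at 0 507 and 380. Chosen after seeing the data, leaving out genes 2-fold apart between the 2 WT E8.5 libraries gave 482 and 385, and leaving out the lists of other tissues 496 and 389. List medians changed sign most often with other filters: for 8 of 41 lists with a mean of at least 5 FPKM (forebrain, Notch, hedgehog, endothelial, endoderm, tail bud, H3K4 and unfolded protein response genes), for 8 of 45 with no filter (Wnt, hedgehog, red cell, endothelial, neural crest, somite, white blood cell and other matrix genes) and for 4 with at least 1 FPKM in either E9.5 column (hedgehog, red cell, endothelial and white blood cell genes). They did so for 4 under median scaling (endothelial, neural crest, ribosomal and heat shock genes), for 2 under quantile normalization (neural crest and heat shock genes), for 1 without genes listed at 0 (endoderm) and for 0 with either pseudocount. Of the 184 described or listed genes past 2-fold, 180 and 178 stayed past it in the same direction under these, 184 with a pseudocount of 0.1 and 89 with 5, and none changed sign. Depth limits low genes most: 1 fragment is worth about 2.91 times as much FPKM in the KO library as in the merged WT column.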

Other observations

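Among genes outside the lists, several with high levels in the E8.5 heads also stood higher in the E9.5 KO library than in E9.5 WT, and they were picked after their values were seen. Hmga1, a chromatin protein of early embryos, had 81.2 FPKM in WT at E8.5, 3.41 in WT at E9.5 and 29.1 in KO at E9.5. Foxh1, a cofactor of Nodal signalling, had 20.4, 0.170 and 9.40 FPKM in the same order, and Eras, a Ras protein of pluripotent cells, 42.9, 0.904 and 16.1. Foxh1 was also called higher in KO at E8.5, with 55.8 FPKM (1.41). It lay 1.53 apart between the 2 WT libraries of that stage. Hes3, a factor of early neural progenitors, had 37.6, 0.607 and 8.67 FPKM, but its E8.5 KO level, 12.0, was below that of WT. Mab21l2, of the eye and midbrain, had 6.87, 1.60 and 7.77 FPKM, and 2.89 in KO at E8.5. The list of early embryo genes did not follow as a whole: of 22 kept genes 4 were higher and 0 lower, with a median of 0.02. That median was 0.93 over members with at least 1 FPKM in either E9.5 column. Of the 23 listed, the KO value was above WT for 11 and below it for 8. Pou5f1, Nodal and Lefty2 are listed at 0 in both E9.5 columns. Columns of the 2 stages were not normalized together.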
